A study of Mus musculus with 6 samples.

Results

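The STAT transcription factor genes *Stat2*, *Stat3*, *Stat4*, *Stat5a*, *Stat5b* and *Stat6* were described in ILC2s sorted from the lungs of WT mice and of mice lacking SIRPα. These 6 genes were chosen by name, as members of one family, from 17831 genes in the table, and all 6 passed the filter on low counts that left 13623 genes for testing. Bulk RNAseq was measured in 3 WT libraries (genotype label CB57BL/6) and 3 SIRPα KO libraries (genotype label SIRPalphatm1Ynliu/J, a targeted allele present in all cells of the mouse). Mice of 6 to 8 weeks were given rmIL-33 into the nose (0.5 μg, on 3 days), lung ILC2s were sorted on day 4 as CD45+ lineage- CD127+ ST2+ cells, and the cells of both groups then stayed in culture with the cytokines rmIL-2 and rmIL-7, for 18 h in the study's results text and 24 h in its legend. No library lacked IL-33, IL-2 or IL-7, so each comparison was between genotypes of activated, cytokine-fed cells. Each cDNA library started from 10 pg of RNA, and whether cells of several mice were pooled was not given in the sources used here. In RNA from a bulk sample, fewer cells of a type and less RNA per cell cannot be told apart.

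STAT proteins wait in the cytoplasm until a cytokine receptor and its JAK kinases add a phosphate to one of their tyrosines, after which they pair, enter the nucleus and bind DNA. STAT2 carries type I interferon signals with IRF9, STAT3 carries those of IL-6 and IL-10, STAT4 those of IL-12, and STAT6 those of IL-4 and IL-13. STAT5A and STAT5B are near-identical proteins from separate genes that carry the signals of IL-2 and IL-7, the cytokines in this culture, and of GM-CSF and IL-5. In ILC2s, STAT5 and STAT6 are known for survival and for type 2 cytokine programmes. RNA levels say nothing of phosphorylation, which is the active state.

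Of the 6 genes, 3 sit together on mouse chromosome 11 (mm10). *Stat5b* (minus strand, chr11:100780731-100850724) and *Stat5a* (plus strand, chr11:100859351-100885169) are 8626 bases apart and run away from each other. *Stat3* (minus strand, chr11:100885098-100939540) meets the end of *Stat5a* tail to tail, with 72 bases annotated to both genes. On chromosome 10 lie *Stat6* (plus strand, chr10:127642986-127660957), whose end overlaps that of *Nab2*, and *Stat2* (plus strand, chr10:128270559-128292849). *Stat4* (plus strand, chr1:51987148-52107189) lies apart from the others and overlaps the transcript *Gm28177* and the pseudogene *Gm3940*. In these libraries *Gm28177* held 0 reads except for 12 in SIRPα KO replicate 3, and *Gm3940* held 1 to 4 reads per library. Whether reads were counted by strand was not given in the sources used here, so reads on the shared ends of *Stat5a* and *Stat3* and of *Stat6* and *Nab2* cannot be told apart.

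The paralogs *Stat5a* and *Stat5b* were the one pair of members in which reads could be split between near-identical copies. Their coding sequences were identical at 2125 of 2343 aligned bases (90.7%), against 58.2% to 65.5% for each other pair. The longest identical run covered 324 coding bases, in exons 7 to 9 of *Stat5a* and exons 6 to 8 of *Stat5b*, and a further run of 129 bases lay beside it, separated by a single base. That shorter run is shown because a read within it fits either gene. It covers coding bases 441 to 569 of both genes, in exons 6 and 7 of *Stat5a* (chr11:100865396-100874021, plus strand) and exons 5 and 6 of *Stat5b* (chr11:100798703-100801516, minus strand).
Run shared by *Stat5a* and *Stat5b*: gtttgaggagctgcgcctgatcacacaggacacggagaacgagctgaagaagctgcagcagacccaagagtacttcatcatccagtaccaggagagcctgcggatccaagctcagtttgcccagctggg

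In contrast, the least alike stretch of 60 coding bases (coding bases 85 to 144) is shown because a read there belongs to a single gene. It lies in exons 3 and 4 of *Stat5a* (chr11:100861422-100861736) and in exons 2 and 3 of *Stat5b* (chr11:100805011-100808439), and capitals mark the 19 bases that differ between the genes.
*Stat5a*: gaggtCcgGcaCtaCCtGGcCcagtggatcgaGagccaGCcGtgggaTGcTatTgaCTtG
*Stat5b*: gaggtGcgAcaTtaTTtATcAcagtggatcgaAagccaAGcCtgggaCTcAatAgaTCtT
Stretches of 50 bases were taken from the longest coding transcript of each member. Of these, 16.4% for *Stat5a* and 11.8% for *Stat5b* also occurred in an annotated transcript of another gene. With stretches of 100 bases these shares were 6.99% and 5.18%. Most sequence of each gene was thus its own, and the values below are the authors' assignment of reads between the copies. *Stat4* shared 28.6% of its stretches of 50 bases with *Gm28177*, and the other members shared at most 0.384%.

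The libraries held 13980499 to 19051507 reads on genes, and each member had between 457 and 7059 reads in every library. *Sirpa*, the targeted gene, had 149, 96 and 73 reads in WT replicates 1 to 3 and 48, 85 and 28 in SIRPα KO replicates 1 to 3. Its log2 fold change was -1.12 (SE 0.42, edgeR adjusted p = 0.115). Some libraries share a code in their labels: code 37 stands on WT replicate 1 and, as 37V1, on WT replicate 2, and code 44 on SIRPα KO replicate 2 and, as 44V1, on replicate 3. What these codes stand for was not given in the sources used here. In WT, the typical gene differed between libraries of one code by 0.20 on the log2 scale and from WT replicate 3 by 0.39 and 0.40 (medians over 9146 genes). In SIRPα KO, that value was 0.12 within the code and 0.12 and 0.13 outside it. The replicates varied more in WT, where edgeR's biological coefficient of variation reached 38.1%, than in SIRPα KO, where it reached 15.2%. All 12 ILC2 markers were detected, with a summed level of 14679 to 16095 counts scaled to library size (CPM) in WT and 20731 to 21172 in SIRPα KO. Markers of B or plasma cells summed to 221 to 498 CPM in WT and 23 to 87.3 in SIRPα KO, T cell markers to 18.5 to 22.6 and 4.57 to 5.45, and NK cell or ILC1 markers to 21.4 to 32.2 and 2.22 to 4.78. Macrophage or monocyte markers summed to 44 to 126 CPM in WT and 77.6 to 121 in SIRPα KO. No marker in the table was at 3 reads or fewer in every library. Without *Il5* and *Il2ra*, the other 10 ILC2 markers summed to 3996 to 4367 CPM in WT and 4540 to 4705 in SIRPα KO. *Pecam1*, the one endothelial cell or fibroblast marker in the table, was at 15.9 to 27.5 and 40.4 to 43.8 CPM. The part of these lists in the STAT values given here was not tested.

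Lung ILC2s had RNA of all 6 genes, at levels that spanned nearly an order of magnitude once divided by transcript length. Levels are given as CPM per kb of the longest annotated transcript, as the mean ± SD over all 6 libraries. *Stat6* stood at 66.2 ± 16.3 CPM per kb (SD, n = 6), above 90.3% of the tested genes with a known length. *Stat3* stood at 57.4 ± 7.54 CPM per kb, above 88.8% of those genes. These leading genes could not be ordered: their ranges over the libraries overlapped (36 to 80.6 and 42.6 to 62.9), and *Stat6* was above *Stat3* in 5 of 6 libraries. Both stood clear of *Stat5b*, at 24.1 ± 5.2 CPM per kb, whose highest library reached 29.1.

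*Stat5b*, *Stat5a* and *Stat4* formed the middle of the order. *Stat5a* was at 17.5 ± 4.39 CPM per kb and *Stat4*, the IL-12 pathway member, at 13.3 ± 1.99. The ranges of these neighbours overlapped, although *Stat5b* was above *Stat5a*, and *Stat5a* above *Stat4*, in 6 of 6 libraries. *Stat2* was lowest, at 7.72 ± 1.11 CPM per kb, above 51.1% of tested genes, and its highest library (9.79) was under the lowest library of *Stat4* (10.3). Of the 5 pairs of neighbours in this order, 2 had ranges that did not overlap. The order was the same with the median length of coding transcripts in place of the longest transcript.

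**Figure D1:**
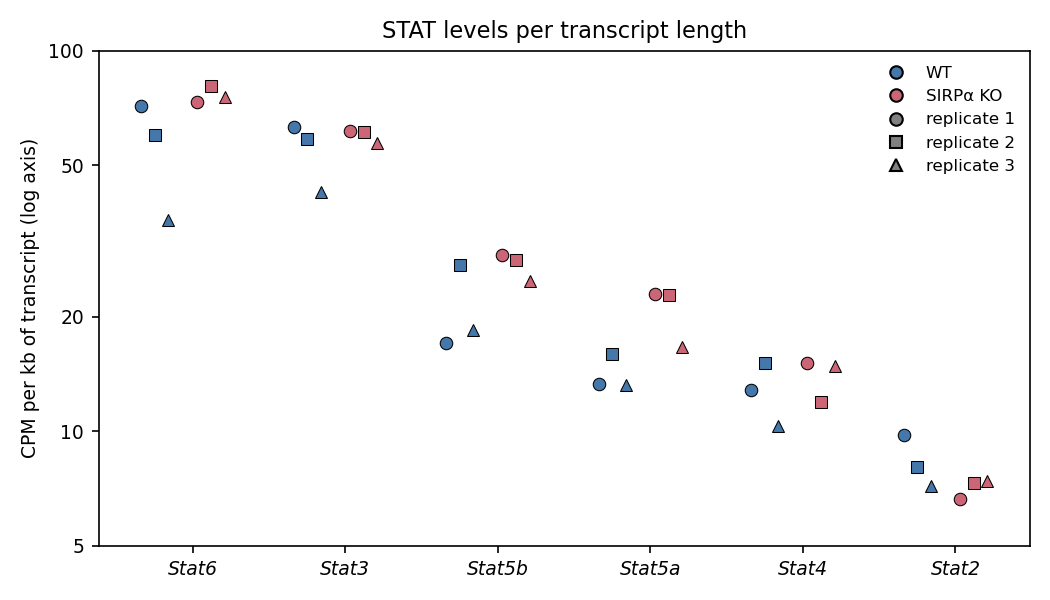
Level of each STAT gene in each library, as CPM per kb of the longest annotated transcript (log axis), with genes ordered by their mean, WT in blue, SIRPα KO in red and one marker shape per replicate. *Stat6* (mean 66.2) and *Stat3* (57.4) sat above all other members in every library, and *Stat2* (7.72) below them.

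Between genotypes, none of the STAT genes passed the threshold: 0 of 6 had an adjusted p under 0.05 by edgeR, where 11.7% of all tested genes did (5.94% upward and 5.81% downward). At an unadjusted p under 0.05 the count was 1 of 6, *Stat5a*, where 32% of tested genes were. DESeq2 also placed *Stat5a* past its adjusted threshold, as the 1 member of 6, where it called 26.9% of the genes to which it gave an adjusted p. The fitted log2 fold change was above 0 for 5 members and below 0 for *Stat2*, with a median of 0.26 over the 6 members and -0.025 over all tested genes. Groups did not overlap for 2 of 6 members, *Stat5a* and *Stat6*, against 42.8% of tested genes. Both were higher in SIRPα KO, as were the separated groups of 21.6% of tested genes. The following paragraphs give each member in CPM, scaled by TMM, and fold changes are SIRPα KO against WT.

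*Stat5a*, which carries IL-2 and IL-7 signals, had a larger fitted log2 fold change than the other members with all libraries in the fit, although *Stat6* was above it without WT replicate 1 (0.68 against 0.51) or SIRPα KO replicate 1 (0.49 against 0.48). It was at 52.7, 63.4 and 52.2 CPM in WT replicates 1 to 3 and at 90.6, 90.3 and 65.9 CPM in SIRPα KO replicates 1 to 3. The groups did not overlap, but SIRPα KO replicate 3 was close to WT replicate 2. The mean in WT was 56.1 ± 6.36 CPM and that in SIRPα KO 82.2 ± 14.2 CPM (SD, n = 3 each). The log2 fold change was 0.55 (SE 0.17, edgeR adjusted p = 0.0716, unadjusted 0.012), or 1.47-fold. DESeq2 gave 0.58 with an adjusted p of 0.0157, so the call rested on the tool. The exact two-sided permutation test over libraries gave p = 0.1, the smallest that 3 against 3 allows.

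*Stat5b*, the paralog with the higher level, was at 88.4, 143 and 96.1 CPM in WT and at 152, 146 and 130 CPM in SIRPα KO. WT replicate 2 lay among the SIRPα KO libraries and the other WT libraries below them, so the groups overlapped. The means were 109 ± 29.3 CPM and 143 ± 11.6 CPM (SD, n = 3 each), with a log2 fold change of 0.39 (SE 0.19, edgeR adjusted p = 0.202). Here 1 library decided the call. Without WT replicate 2 the log2 fold change was 0.63 (edgeR adjusted p = 0.0292), in a fit that called 16.3% of its genes. WT replicates 1 and 2, which share a code, differed 1.61-fold in *Stat5b*, 14.1 times the error of counting alone. For *Stat5a*, the libraries of code 44 differed by 8.07 times that error, SIRPα KO replicate 3 being at 0.73 of replicate 2.

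*Stat6*, the IL-4 and IL-13 pathway member, was at 270, 227 and 136 CPM in WT and at 277, 304 and 286 CPM in SIRPα KO. WT replicate 1 was just under the lowest SIRPα KO library, while WT replicate 3 was far below all others. The means were 211 ± 68.3 CPM and 289 ± 14 CPM (SD, n = 3 each), and the log2 fold change was 0.45 (SE 0.23, edgeR adjusted p = 0.206, exact permutation p = 0.1). Without WT replicate 3 it was 0.23 (edgeR adjusted p = 0.132), and without WT replicate 1 it was 0.68 (adjusted p = 0.091).

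*Stat3*, the IL-6 and IL-10 pathway member, was at 380, 353 and 257 CPM in WT and at 373, 370 and 346 CPM in SIRPα KO. The SIRPα KO libraries lay between the values of WT replicates 1 and 2 or close to them, and again WT replicate 3 stood below the rest. The means were 330 ± 64.6 CPM and 363 ± 14.7 CPM (SD, n = 3 each), with a log2 fold change of 0.14 (SE 0.15, edgeR adjusted p = 0.56). Without WT replicate 3 the difference changed sign, to -0.0068 (edgeR adjusted p = 0.956).

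*Stat4* was at 38.3, 45.1 and 30.9 CPM in WT and at 44.9, 35.4 and 44.2 CPM in SIRPα KO, so the groups were intermixed. Its log2 fold change was 0.12 (SE 0.19, edgeR adjusted p = 0.683), and without WT replicate 3 it was 0.0013 (adjusted p = 0.996). *Stat2*, the interferon pathway member, was at 43.1, 35.3 and 31.6 CPM in WT and at 29.2, 32.1 and 32.4 CPM in SIRPα KO. WT replicate 3 lay within the SIRPα KO range and the other WT libraries above it, with a log2 fold change of -0.23 (SE 0.17, edgeR adjusted p = 0.38). With libraries of one code summed, which leaves 2 against 2, the log2 fold changes of *Stat5a*, *Stat5b* and *Stat6* were 0.64, 0.49 and 0.58, with edgeR adjusted p values of 0.146, 0.182 and 0.294.

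**Figure D2:**
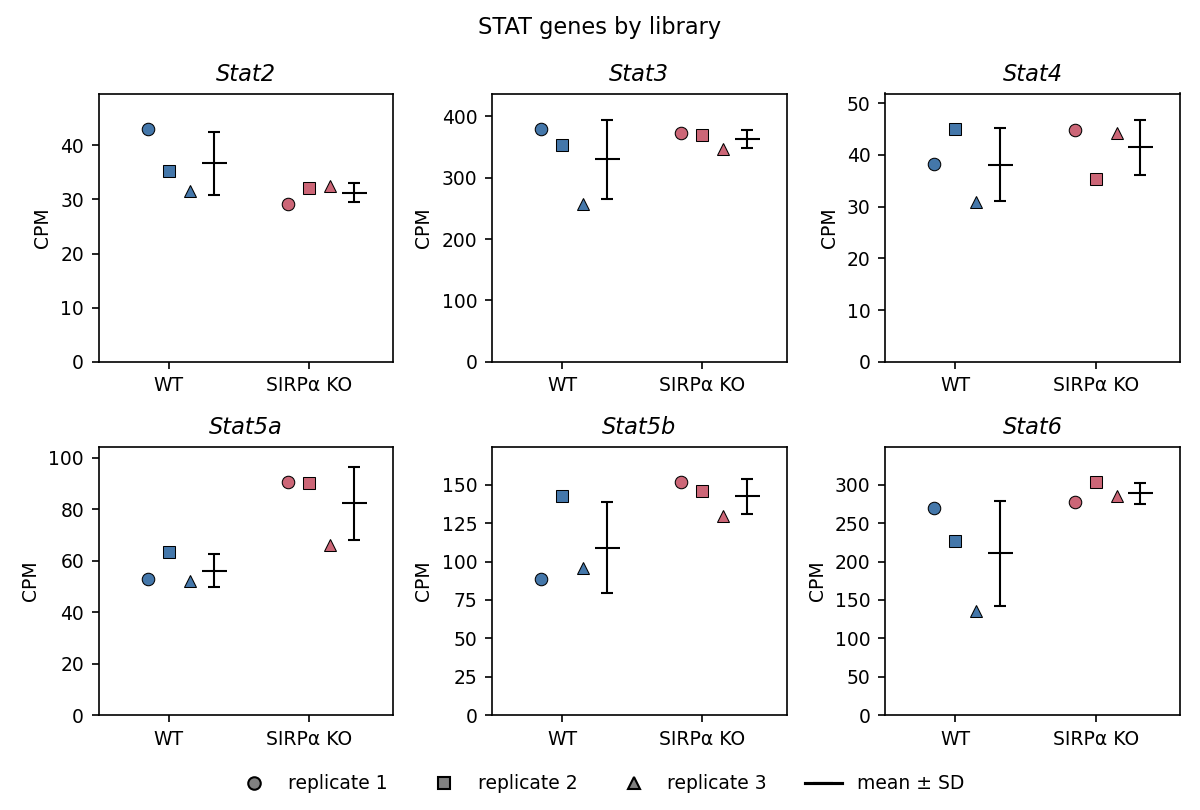
CPM of each STAT gene in each library, with WT in blue, SIRPα KO in red, one marker shape per replicate and the mean ± SD of each group beside the points. Groups did not overlap for *Stat5a* and *Stat6*, and WT replicate 3 was the lowest library for *Stat3*, *Stat4*, *Stat5a* and *Stat6*.

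Fold changes in these libraries followed transcript length, so each member was also set beside genes of its own length. Genes whose average log2 CPM reached 3 or more were split into deciles by length, and the median log2 fold change went from -0.55 in the shortest decile (median transcript 977 bases) to 0.47 in the longest (8132 bases). The longest transcripts of the members were 2982 bases for *Stat4*, 3775 for *Stat6*, 3958 for *Stat5a*, 4397 for *Stat2*, 5213 for *Stat5b* and 6042 for *Stat3*. *Stat5a* was above 77.4% of the genes in its decile, whose median was 0.21, and *Stat6* above 76.5% of its decile, whose median was 0.13. *Stat5b* was above 51.5% and *Stat4* above 54.5% of their deciles, close to the middle. *Stat3* was above 31.9% of its decile, whose median was 0.36, and *Stat2* above 17.9% of its decile.

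With transcript length and GC content fitted as an offset, 3 members had a log2 fold change above 0 and 3 below, with a median of 0.048. *Stat5a* stayed at 0.56 (SE 0.17, edgeR adjusted p = 0.0877) and *Stat6* at 0.40 (SE 0.17, adjusted p = 0.175). *Stat5b* moved from 0.39 to 0.15 (adjusted p = 0.622). *Stat2* moved from -0.23 to -0.42 (SE 0.14, edgeR adjusted p = 0.096). *Stat3* and *Stat4* changed sign, to -0.14 (adjusted p = 0.326) and -0.058 (adjusted p = 0.854). The corrected fit called 0 of 6 members and 8.93% of all tested genes (4.12% upward and 4.82% downward). At an unadjusted p under 0.05 it held 3 of 6, *Stat2*, *Stat5a* and *Stat6*, where it held 3712 of 13623 tested genes. The corrected levels did not overlap between genotypes for 4 of 6 members, against 35.1% of tested genes: *Stat2* and *Stat3* were lower and *Stat5a* and *Stat6* higher in SIRPα KO.

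**Figure D3:**
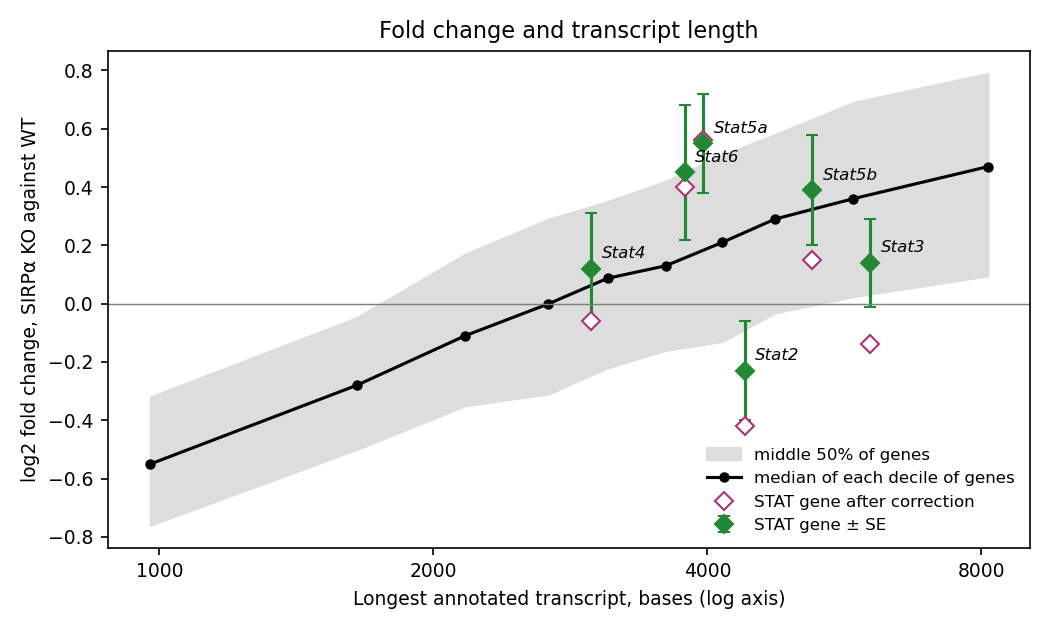
Log2 fold change of SIRPα KO against WT by the length of the longest annotated transcript (log axis), with the median and the middle 50% of each decile of genes in black and grey, the STAT genes ± SE in green and their values after the length and GC correction as open diamonds. *Stat5a* (0.55) and *Stat6* (0.45) were above, and *Stat3* (0.14) and *Stat2* (-0.23) below, the median of genes of their length.

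Ratios between members within a library need no scaling between libraries, and 15 pairs were compared. The reads of *Stat5a* relative to *Stat5b* were 0.596, 0.445 and 0.543 in WT and 0.596, 0.617 and 0.509 in SIRPα KO. The groups overlapped, and the log2 ratio was 0.13 higher in SIRPα KO (-0.93 ± 0.22 in WT and -0.81 ± 0.15 in SIRPα KO, SD, n = 3 each, exact permutation p = 0.5, adjusted over the pairs 0.625). *Stat5a* thus made up 30.8% to 38.2% of the reads of both paralogs. The lowest share was that of WT replicate 2 (95% Wilson interval 29.1% to 32.5%, for counting error only). Divided by transcript length, *Stat5a* stood at 0.586 to 0.813 of *Stat5b*. With their reads summed to a single row, the paralogs were at 141, 206 and 148 CPM in WT and at 242, 236 and 195 CPM in SIRPα KO. Summing removes the division of counted reads between them, but any shared reads left uncounted would be missing from the sum too. The sum had a log2 fold change of 0.45 (SE 0.17, edgeR adjusted p = 0.121), and WT replicate 2 was above SIRPα KO replicate 3. This sum, and the corrected ratios below, were chosen after the data were seen.

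For 4 of 15 pairs the ratios did not overlap between genotypes, and the share of single tested genes that did not overlap was 42.8%. *Stat3* was at 1.41, 1.56 and 1.89 times the reads of *Stat6* in WT and at 1.35, 1.22 and 1.21 times in SIRPα KO. The SIRPα KO ratios were all lower, by 0.36 on the log2 scale. *Stat2* was at 0.113, 0.1 and 0.123 of *Stat3* in WT and at 0.0784, 0.0867 and 0.0937 in SIRPα KO. Relative to *Stat6* it was at 0.16, 0.156 and 0.232 in WT and 0.105, 0.105 and 0.113 in SIRPα KO, and relative to *Stat5a* at 0.818, 0.557 and 0.605 and at 0.323, 0.356 and 0.492. For each of these 4 pairs the exact permutation test gave p = 0.1, the smallest possible, and 0.375 after adjustment over 15 pairs, so no ratio passed the threshold. The same pairs did not overlap after the length and GC correction either, when 6 of 15 pairs were separated. The further pairs were *Stat3* to *Stat5a* and *Stat5a* to *Stat5b*, the latter with a log2 ratio 0.37 higher in SIRPα KO (exact permutation p = 0.1) in place of 0.13. As a share of the summed STAT levels per kb, *Stat2* went from 5.07% ± 0.658 in WT to 3.46% ± 0.285 in SIRPα KO, *Stat3* from 32.8% ± 1.09 to 29.2% ± 0.317 and *Stat6* from 32.9% ± 5 to 37.2% ± 1.82 (SD, n = 3 each). Shares of a sum depend on each other, and they were not tested.

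**Figure D4:**
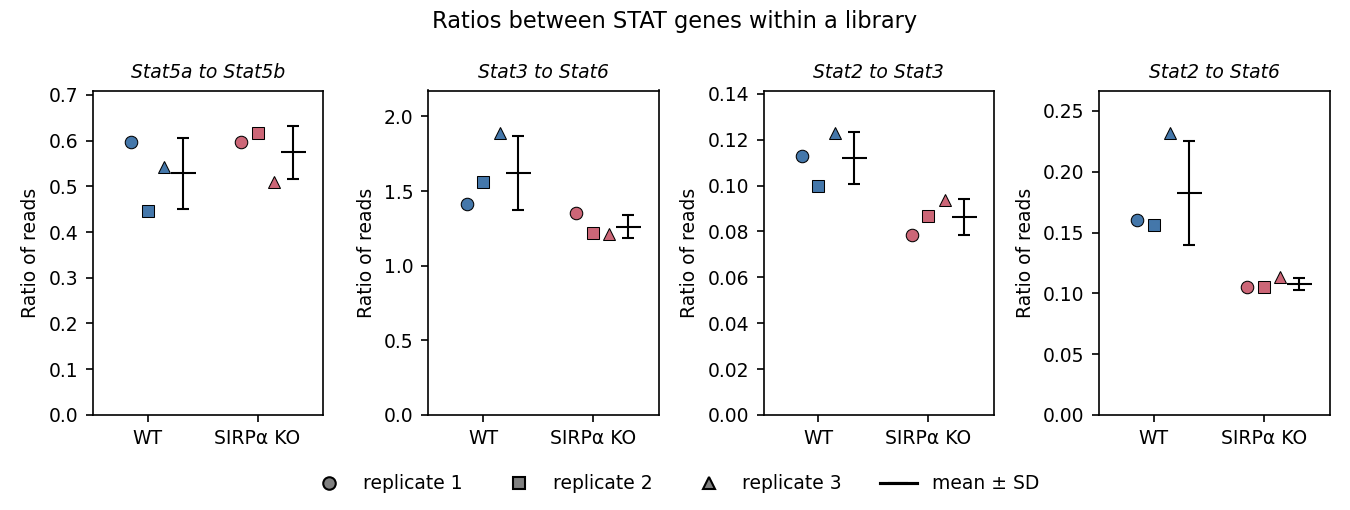
Ratio of reads between STAT genes within each library, with WT in blue, SIRPα KO in red, one marker shape per replicate and the mean ± SD of each group beside the points. The *Stat5a* to *Stat5b* ratio overlapped between genotypes (0.445 to 0.617 over all libraries), whereas the *Stat3* to *Stat6*, *Stat2* to *Stat3* and *Stat2* to *Stat6* ratios were lower in every SIRPα KO library.

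Genes up- and downstream of the STATs were taken as 10 lists of 120 genes in all. Of these, 101 were tested, and by edgeR 6 rose and 9 fell, or 14.9% against 11.7% of all tested genes. The median log2 fold change was 0.052 over the tested list genes. The groups were separated for all 15 of these genes, against 42.8% of all tested genes. The 15 were called from the same libraries, so their separation adds no support. With libraries of one code summed, 0 of the 15 were past the threshold, in a fit that called 10 genes in all, and the count was also 0 without any 1 SIRPα KO library, in fits that called 16 or 17 genes.

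Upstream, 0 of 4 JAK kinases passed the threshold, against 11.7% of all tested genes. Their median log2 fold change was 0.38, and 0.14 after the length and GC correction. *Jak1*, the most abundant and a partner of most cytokine receptors, was at 543, 553 and 307 CPM in WT and at 772, 707 and 655 CPM in SIRPα KO. Its groups did not overlap, with a log2 fold change of 0.60 (SE 0.21, edgeR adjusted p = 0.101) that passed the threshold with DESeq2 (adjusted p = 0.0351) and was 0.29 after the length and GC correction (adjusted p = 0.188). Of 20 tested receptor chains, 1 rose and 1 fell (against 5.94% and 5.81% of all tested genes), with a median of -0.11. *Il2ra*, the high-affinity chain for the IL-2 in the culture, was at 2064, 2054 and 1406 CPM in WT and at 3473, 3464 and 3417 CPM in SIRPα KO. It rose by a log2 fold change of 0.91 (SE 0.15, edgeR adjusted p = 0.0154) and was the most abundant chain. *Crlf2*, a chain of the TSLP receptor, fell by 1.14 on the log2 scale (SE 0.24, edgeR adjusted p = 0.0267), from 23 ± 6.21 to 10.5 ± 0.797 CPM (SD, n = 3 each), and was at -0.46 after the correction (adjusted p = 0.212).

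Among 9 tested cytokine genes that ILC2s are known to make and that signal through STATs, 2 rose and 1 fell. Of all tested genes, 5.94% rose and 5.81% fell. The median log2 fold change of the cytokine genes was 0.29. *Il6*, a ligand of the STAT3 pathway, was at 8.74, 9.67 and 12.2 CPM in WT and at 35.7, 35.7 and 35.5 CPM in SIRPα KO. It rose 3.5-fold (log2 fold change 1.81, SE 0.19, edgeR adjusted p = 0.00586). *Il5*, the eosinophil growth factor and the most abundant of these genes, rose from 9192 ± 661 to 12951 ± 332 CPM (log2 fold change 0.49, SE 0.074, edgeR adjusted p = 0.0138). *Csf2*, which encodes GM-CSF, fell from 1267 ± 322 to 740 ± 17.6 CPM (log2 fold change -0.78, SE 0.17, edgeR adjusted p = 0.0297). After the length and GC correction, which called 8.93% of all tested genes, 3 rose and 1 fell, with a median of 0.61. *Csf2* was then at -0.39 (edgeR adjusted p = 0.0217). The added gene was *Il13*, a STAT6 pathway ligand, which moved from 0.34 (edgeR adjusted p = 0.141) to 0.78 (adjusted p = 0.00568).

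Of 18 inhibitors of STAT signalling, 1 rose and 2 fell by edgeR (against 5.94% and 5.81% of all tested genes), with a median of 0.11. DESeq2 called 5 of them higher and 2 lower, where it called 14.9% of all genes higher and 12% lower. *Socs1* and *Socs3*, which bind JAKs and receptors and are themselves STAT-induced, fell by 0.69 (SE 0.16, edgeR adjusted p = 0.0367) and 0.55 (SE 0.14, adjusted p = 0.0461) on the log2 scale. *Socs1* was at 401, 396 and 583 CPM in WT and at 274, 278 and 304 CPM in SIRPα KO. *Ptprc*, which encodes the phosphatase CD45, rose from 346 ± 119 to 645 ± 19.7 CPM (log2 fold change 0.90, SE 0.24, edgeR adjusted p = 0.0484). All 3 lost the threshold after the length and GC correction. *Socs1* was then at -0.53 with separated groups (edgeR adjusted p = 0.0849), *Socs3* at -0.33 (adjusted p = 0.169) and *Ptprc* at 0.42 (adjusted p = 0.0727). In their place *Ptpn6*, a phosphatase gene, passed at 0.54 (edgeR adjusted p = 0.0417) and *Socs2* at -0.45 (adjusted p = 0.0415). *Cish*, the most abundant inhibitor, was at 587, 700 and 579 CPM in WT and at 573, 548 and 541 CPM in SIRPα KO (log2 fold change -0.17, SE 0.11, edgeR adjusted p = 0.31).

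Textbook targets of the members did not share one direction. Of 13 STAT5 targets, 1 rose (*Il2ra*, above) and 2 fell, against 5.94% and 5.81% of all tested genes. Their median log2 fold change was -0.10. *Lta*, which encodes lymphotoxin α, fell from 354 ± 74.1 to 149 ± 6.56 CPM (log2 fold change -1.25, SE 0.16, edgeR adjusted p = 0.0101). Markers of B, T and NK cells were also lower in SIRPα KO, as given above, and their part in the fall of *Lta* was not tested. *Ccnd3*, which encodes cyclin D3, fell from 573 ± 20.3 to 373 ± 7.45 CPM (log2 fold change -0.62, SE 0.089, edgeR adjusted p = 0.0129). The fit with the length and GC correction called 4.12% of all tested genes upward and 4.82% downward. In it 4 of the STAT5 targets rose and 4 fell, with a median of -0.36. Those that rose were *Il2ra*, *Bcl2l1*, *Myc* and *Pim2* (log2 fold changes of 0.50 to 0.57), and those that fell were *Lta*, *Ccnd3*, *Socs2* and the survival gene *Bcl2* (-0.97, edgeR adjusted p = 0.0038). Of 13 STAT3 targets, *Socs3* fell and none rose, with a median of -0.11. This turned with the length and GC correction, where 3 rose and 0 fell, with a median of 0.10. *Batf*, an AP-1 family factor gene, was then at 0.79 (edgeR adjusted p = 0.00529), *Bcl2l1*, a survival gene, at 0.57 (adjusted p = 0.0184) and *Bcl3*, an NF-κB cofactor gene, at 0.48 (adjusted p = 0.029). Before it they were at 0.17, 0.41 and 0.0054, and none passed. *Hif1a*, the most abundant STAT3 target, which encodes a hypoxia-response factor, was at 665, 653 and 216 CPM in WT and at 1356, 1253 and 1237 CPM in SIRPα KO (log2 fold change 1.33, SE 0.37, edgeR adjusted p = 0.0545). It passed the threshold with DESeq2 (adjusted p = 0.00195) and was at 0.96 after the correction (edgeR adjusted p = 0.0664). DESeq2 called 2 of the STAT3 targets higher and 3 lower, where it called 14.9% of all genes higher and 12% lower.

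Of 9 tested STAT6 targets, *Socs1* fell and none rose (against 5.81% and 5.94% of all tested genes), with a median of -0.13. *Gata3*, the ILC2 lineage factor and the most abundant of them, was at 1078, 914 and 846 CPM in WT and at 1027, 1035 and 974 CPM in SIRPα KO (log2 fold change 0.097, SE 0.11, edgeR adjusted p = 0.566). Of 5 tested STAT4 targets, 2 fell (against 5.81% of all tested genes), with a median of -0.45. The list held 8 genes, of which *Ifng*, *Tbx21* and *Il12rb2* did not pass the filter on low counts. *Il18r1*, a chain of the IL-18 receptor, fell from 17.3 ± 3.55 to 6.12 ± 1.39 CPM (log2 fold change -1.50, SE 0.26, edgeR adjusted p = 0.0184), and *Gadd45g*, a stress-response gene, from 33.7 ± 6.86 to 17.5 ± 1.24 CPM (log2 fold change -0.95, SE 0.20, adjusted p = 0.0267). After the length and GC correction *Il18r1* was at -1.90 (edgeR adjusted p = 0.0169), while *Gadd45g* was at -0.29 and lost the threshold (adjusted p = 0.225). *Il18r1* is also expressed by NK cells and T cells, whose markers were lower in the SIRPα KO libraries, as given above, and their part in its fall was not tested. The lineage antibodies of the sort included CD335, CD3ε, TCRβ and TCRγδ, and CD45R for B cells. Markers of NK cells, T cells and B cells were detected in the libraries all the same. *Furin*, a protease gene and the most abundant STAT4 target, had a log2 fold change of 0.36 (SE 0.17, edgeR adjusted p = 0.198).

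Of 11 tested interferon-stimulated genes bound by STAT2 complexes, 0 passed the threshold with edgeR, and 2 were lower with DESeq2, which called 12% of all genes lower. In 8 of 11 the log2 fold change was below 0, against 51.6% of all tested genes, with a median of -0.26. Many of these signs rest on low levels: apart from *Bst2*, *Irf9* and *Eif2ak2*, the highest group mean was 9.56 CPM (*Xaf1* in WT). *Mx1*, *Ifit1*, *Ifit3* and *Oasl2* did not pass the filter on low counts. *Bst2*, which encodes tetherin, was the most abundant, at 65.7, 71 and 107 CPM in WT and at 54.1, 48.6 and 55.4 CPM in SIRPα KO (log2 fold change -0.62, SE 0.20, edgeR adjusted p = 0.0806). After the length and GC correction it was at 0.048 (adjusted p = 0.821).

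Of 12 STAT partner proteins, 2 rose and 1 fell (against 5.94% and 5.81% of all tested genes), with a median of 0.12. *Ep300*, a histone acetyltransferase gene, was at 33.4, 45.6 and 34.8 CPM in WT and at 105, 96.2 and 96.8 CPM in SIRPα KO. It rose by a log2 fold change of 1.39 (SE 0.16, edgeR adjusted p = 0.00746), which was 0.97 after the correction (adjusted p = 0.0113). *Kpna1*, which encodes an importin that carries STATs into the nucleus, rose by a log2 fold change of 1.07 (SE 0.20, edgeR adjusted p = 0.0221). *Nmi*, which encodes a STAT-binding protein, fell from 48.8 ± 5.1 to 29 ± 3.43 CPM (log2 fold change -0.75, SE 0.16, edgeR adjusted p = 0.03). *Kpna2*, another importin gene and the most abundant partner, had a log2 fold change of -0.022 (SE 0.10, adjusted p = 0.903).

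**Figure D5:**
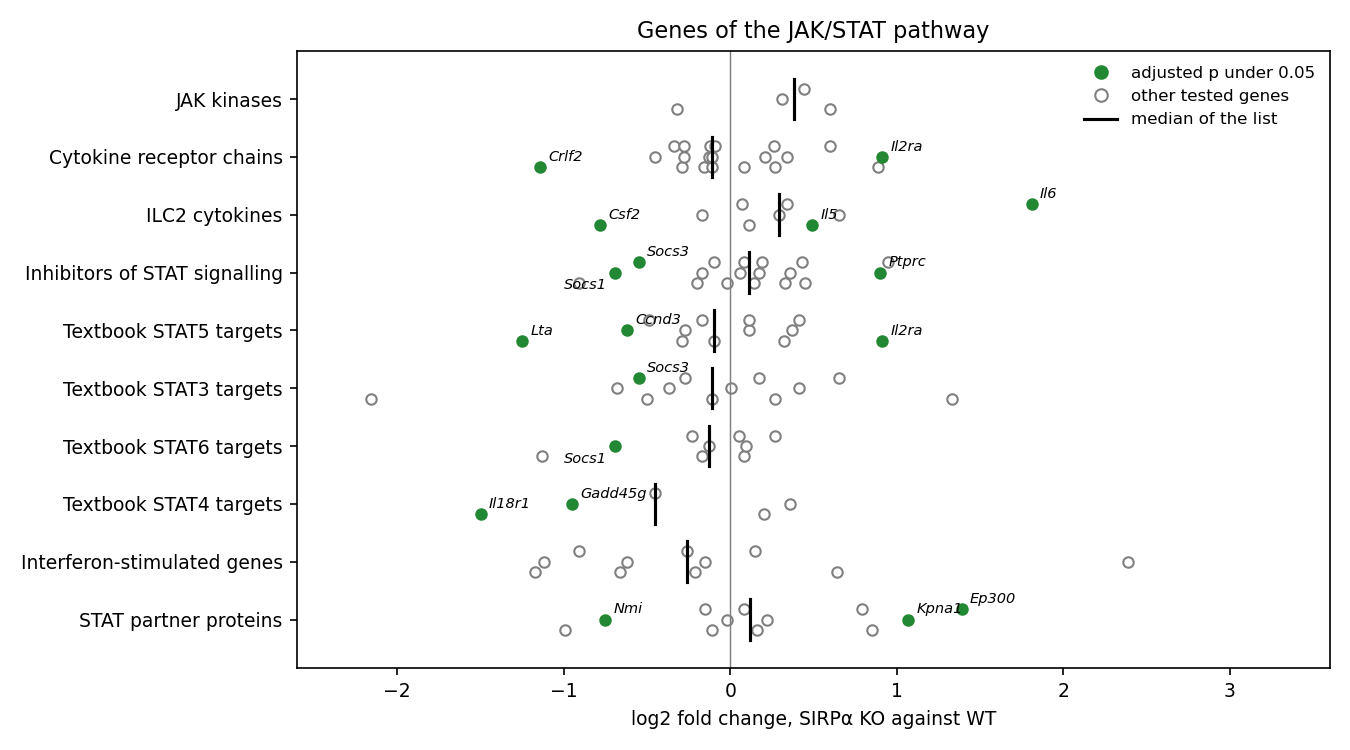
Log2 fold change of SIRPα KO against WT for each tested gene of the JAK/STAT lists, 1 row per list, with filled points for genes at an adjusted p under 0.05 by edgeR and a black bar at the median of each list. Of 101 genes, 6 were higher and 9 lower, with no list on one side of 0.

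The genes whose levels most resembled each member across the 6 libraries were found by Pearson's r of log2 CPM among the other 9145 genes whose average log2 CPM reached 3 or more. *Stat5a* was most like *Mtg1* (r = 0.989), *Slc25a40* (0.988) and *Dusp11* (0.988), and *Stat5b* most like *Tob2* (0.997), *Taok1* (0.995) and *Dffa* (0.992). *Stat6* was most like *Capza2* (0.999), *Afg3l2* (0.997) and *Brd8* (0.996), and *Stat3* most like *Coro2a*, *Mfsd4a* and *Fanci* (0.996 each). *Stat4* was most like *Keap1* (0.989), *Prr11* (0.983) and *Mfsd8* (0.973), and *Stat2* most like *Ccdc69* (0.995), *Zfp82* (0.993) and *Cbx3* (0.985). Such values were common: r was above 0.9 for 1185 genes with *Stat6*, 631 with *Stat3* and 51 with *Stat4*. Within the family, the highest r were 0.94 between *Stat3* and *Stat6*, both low in WT replicate 3, and 0.866 between *Stat5a* and *Stat5b*, while *Stat2* stood at -0.616 with *Stat5a* and -0.63 with *Stat5b*. These are descriptions over 6 libraries, and each r also holds the differences in genotype, depth and length trend between them.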

How the data were processed

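Bulk RNAseq of cultured lung ILC2s was analysed in 3 WT and 3 SIRPα KO libraries, grouped by their labels. The authors aligned reads with STAR to mm10 with GENCODE M21 in Partek (10.0 and STAR 2.7.8 in the submitters' processing notes) and deposited estimated counts per gene, not scaled for library size. Of the values in a library, 61.4% to 65.8% were whole (within 0.001). How reads on repeated or overlapping genes were shared was not given in the sources used here. The table held no gene with a total under 10 reads. Of its gene columns, 196 were listed by name and 17635 others hold the same unit. The authors' single-cell, flow cytometry and respiration data were not analysed here.

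The deposited counts were first rounded to integers, then filtered with filterByExpr (10 reads in a library of median size, 15 in total), scaled by TMM and tested by genotype with edgeR's quasi-likelihood test and Benjamini-Hochberg adjustment over 13623 genes, with an adjusted p under 0.05 as the threshold. SEs came from the F statistic. Nothing shows that libraries of a group came from separate animals, so p-values measure the spread between these libraries, which may be technical. Ratios were compared by exact two-sided permutation. The length and GC correction fitted splines with 5 degrees of freedom to 8867 genes (99% of tested genes had a length). Symbols matched the annotation for 17400 genes directly and 188 by synonym. R 4.3.3, edgeR 4.0.16, limma 3.58.1, DESeq2 1.42.0, SciPy 1.17.1, Biopython 1.88 and matplotlib 3.10.9 were used, and the fits were tested on simulated data.

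The members were chosen by name and the lists by textbook role, with earlier results of these data known. Named genes are all members, *Sirpa*, list genes past the threshold, the most abundant gene of each list and the 3 genes most like each member. List genes named for the corrected fit alone, and *Pecam1*, were chosen after their values were seen. *Nab2*, *Gm28177* and *Gm3940* are named for their overlap with members. Of 120 list genes, 19 were not tested: 8 were not in the table and the others did not pass the filter on low counts. Of 73 marker genes, 11 were not in the table. Of the 11 marker lists, those not given in the text summed in WT and SIRPα KO to 45.8 to 61.4 and 47.3 to 56 CPM (dendritic cell), 43.9 to 73.1 and 5.89 to 72.2 (epithelial cell), 7.64 to 21.6 and 1.55 to 29.1 (mast cell, basophil or eosinophil), 0.85 to 1.43 and 0.315 to 2.85 (ILC3), and 0.174 to 0.286 and 0 to 0.472 (neutrophil). Alternatives were DESeq2, other scalings and filters, leaving out each library, a replicate block, summed codes and the length and GC correction.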

Additional observations from a re-analysis of the deposited data

How the results depend on the processing

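Over 15 alternatives, 83 of 90 log2 fold changes of the 6 members kept their sign and their side of the threshold. Those that did not were *Stat5a* with DESeq2 (0.58), *Stat5b* without WT replicate 2, and *Stat3* and *Stat4* by sign. With the length and GC correction *Stat3* was at -0.14 and *Stat4* at -0.058, and with that correction and the replicate block at -0.14 and -0.057. The cause was not tested. Leaving out each library in turn gave -0.32 to -0.094 for *Stat2*, -0.0068 to 0.25 for *Stat3*, 0.0013 to 0.26 for *Stat4*, 0.48 to 0.70 for *Stat5a*, 0.26 to 0.63 for *Stat5b* and 0.23 to 0.68 for *Stat6*. The number of members past the threshold was 1 with DESeq2 and 0 to 1 without a library. The number of list genes past it was 15, where 11.7% of all tested genes were. It was 34 with DESeq2, which called 26.9% of the genes to which it gave an adjusted p. With libraries of one code summed (fewer samples) it was 0. Without a library it was 0 to 35. The highest was without WT replicate 3, where 2606 of 14143 genes were called, and it was 0 without each SIRPα KO library. After the correction, which called 8.93% of all tested genes, it was 19, of which 10 were among the 15. Same-numbered libraries did not deviate together (r of -0.143, 0.189 and 0.0436), so the numbers were not taken as pairs. With the replicate block, 0 members and 13 list genes passed, all genes called went from 1600 to 1118, *Stat5a* had an adjusted p of 0.0862 by edgeR, and the *Stat5a* to *Stat5b* log2 ratio differed by 0.13. That ratio difference stayed above 0 under every alternative tried, at 0.0085 to 0.22 without a library, with exact permutation p values of 0.2 to 1, and at 0.37 with the length and GC correction (0.1). All genes called numbered 1111 to 2606 without a WT library and 3214 with DESeq2. Upper quartile scaling moved the median of all genes to -0.13 from -0.025, with 703 genes higher and 1010 lower. Between libraries of one code, counting alone gives an error of 0.026 to 0.086 on the log2 scale for a member. Reads amplified from 10 pg of RNA are not independent molecules, so what depth and input limit cannot be read from that error.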
